A study of Rattus norvegicus with 8 samples.

Results

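The genes described here are 10 early response genes, most of them transcription factors, measured in the kidney of rats given a stone-forming regimen. They are Fos, Fosl1, Jun, Junb, Atf3, Cebpb, Egr1, Klf6, Myc and Ier3, and they were taken by gene symbol from 18166 named genes on an Affymetrix whole-transcript array. All 10 were measured, by 11 probe sets, since Jun had 2. Kidney tissue came from male Wistar rats 10 weeks old, and all 8 samples carry one treatment label, ethylene glycol every day and vitamin D on alternate days over 1 week. The samples are 4 arrays of cortex and 4 of medulla. No array is labelled as untreated and no separate animals are named, so no comparison with untreated kidney was made and the spread between arrays may be technical. The genes were chosen by symbol with their log2 intensities on these 8 arrays already known, so the values between arrays of a region are a description and carry no test. Replicates are numbered in label order within each region, and a number does not tie a cortex array to a medulla array.

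Early response genes are switched on within minutes to hours of a stimulus without new protein synthesis, and many of their messages decay quickly. Fos and Jun family proteins pair through leucine zippers to form the AP-1 factor, EGR1 and KLF6 bind GC-rich DNA through zinc fingers, and MYC pairs with MAX at E-box sequences to drive growth and ribosome production. In the kidney, several of these genes are known to respond to ischaemia, toxins and other injury of the tubule.

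Promoter sequence was at hand for 5 of the 10 genes, Egr1, Klf6, Junb, Cebpb and Fosl1, from RefSeq on build GRCr8, as windows of 250 bases before to 50 after the start of the gene. The following 4 stretches are shown because they hold all the matches found in these windows. Capitals mark a match to the core of the serum response element in Egr1 and Klf6, to the E-box CACGTG in Klf6 and to the TATA box in Junb and Cebpb. They come from chr18:26736963-26737017 on the plus strand for Egr1, chr17:69458514-69458688 on the minus strand for Klf6, chr19:40081056-40081115 on the plus strand for Junb and chr3:176816950-176816994 on the plus strand for Cebpb, each written 5′ to 3′.
Egr1: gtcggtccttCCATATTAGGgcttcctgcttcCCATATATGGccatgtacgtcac
Klf6: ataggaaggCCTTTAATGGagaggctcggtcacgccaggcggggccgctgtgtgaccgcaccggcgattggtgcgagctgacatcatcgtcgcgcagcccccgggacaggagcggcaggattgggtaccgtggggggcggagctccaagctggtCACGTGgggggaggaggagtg
Junb: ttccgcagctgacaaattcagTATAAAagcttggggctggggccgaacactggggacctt
Cebpb: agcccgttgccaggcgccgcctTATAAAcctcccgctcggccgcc

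The serum response element core is the site of serum response factor, through which growth factor signals reach early response genes. It was found in 2 of the 5 windows, and 1.64% of 33469 rat promoter windows of this length hold it on either strand. The Egr1 matches began 105 and 83 bases before the start and the Klf6 match 201 bases before it. The E-box CACGTG occurred in 1 of the 5 windows against 6.42% of all windows, and the TATA box TATAAA in 2 of the 5 against 14.2%. The other searches on both strands had 0 matches in the 5 windows. They were the cAMP response element TGACGTCA (1.83% of all windows), the AP-1 site TGANTCA (7.33%), the EGR site GCGNGGGCG (4.98%), the C/EBP site TTNNGCAA (10.6%), the STAT site TTCNNNGAA (8.87%) and the NF-kB site (7.51%). No match overlapped another.

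The median intensity was 34.1 to 34.7 on every array, and the precision is limited by having 8 of them. Cortex replicate 4 and medulla replicate 4 stood apart from the other arrays of their regions, so results that rest on them are given with and without them. The array that was highest in a region was replicate 4 in both regions for 17.0% of all genes and for 8 of the 10 early response genes. Markers of the regions were checked as well. The mean of 10 medullary markers was 7.42 to 8.67 log2 units on the medulla arrays and 6.69 to 7.76 on the cortex arrays. The ranges overlapped because the highest cortex value, on replicate 1, lay above the lowest medulla value, on replicate 4. The mean of 9 cortical markers was 8.85 to 9.49 on cortex and 8.64 to 9.21 on medulla arrays. Slc14a2, which carries urea out of the deep collecting duct, stood at 5.88, 4.95, 5.05 and 4.80 across the cortex set, taken in replicate order here and throughout, and at 7.42, 6.15, 6.49 and 6.76 across the medulla set. In tissue of mixed cells, more cells of a type and more RNA per cell cannot be told apart.

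**Figure D1:**
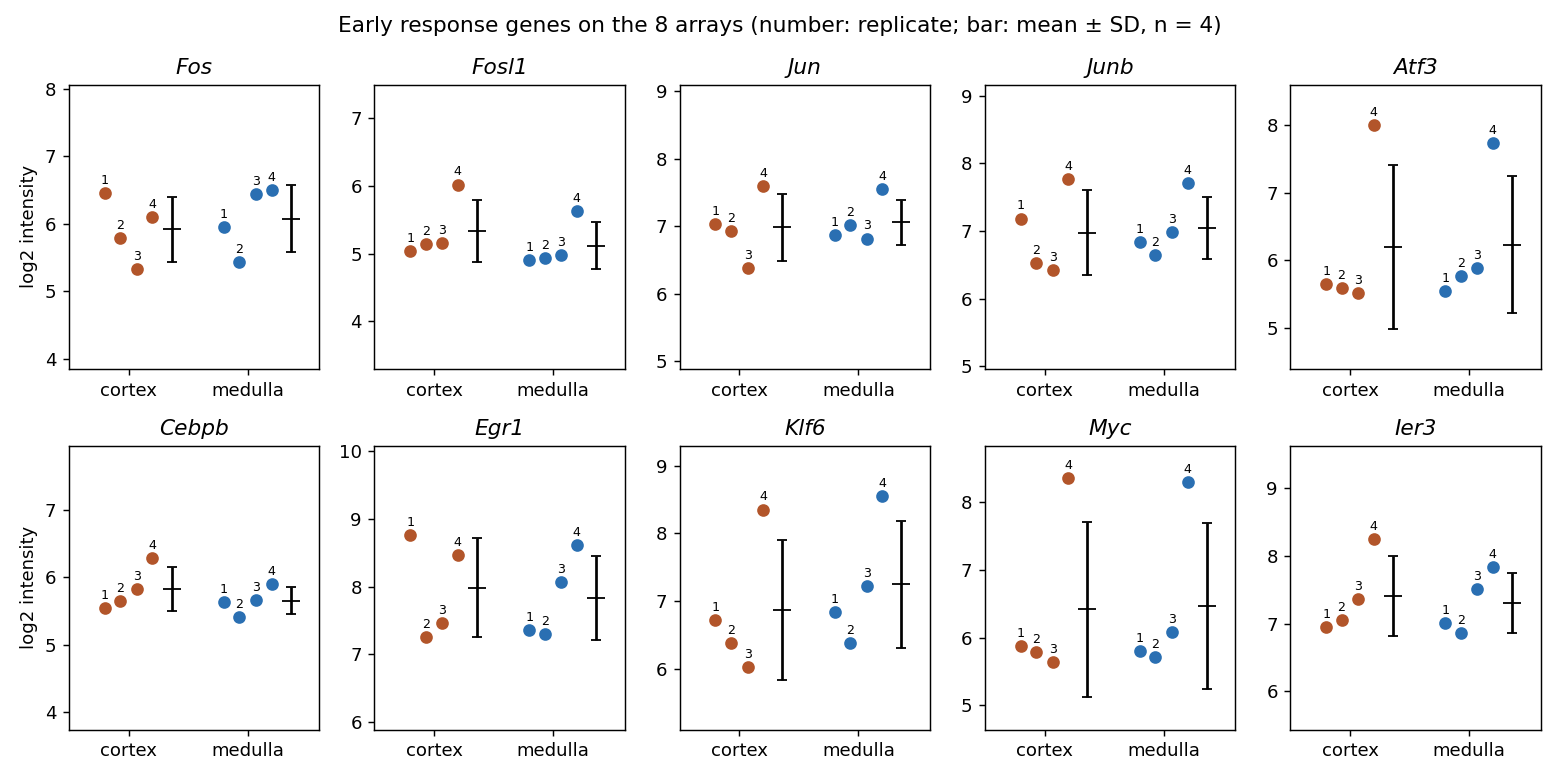
The log2 intensity of each of the 10 genes (vertical axis, 4.2 log2 units in every panel) is plotted on the 4 cortex and 4 medulla arrays, with the replicate number above each point and the mean ± SD (n = 4) beside each group. Myc and Atf3 are high on replicate 4 alone in both regions, and Egr1 and Fos are high on cortex replicate 1 as well.

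Myc, the growth-driving partner of MAX, had the widest differences of the 10 genes within both regions. Its log2 intensity was 5.88, 5.79, 5.64 and 8.35 for the cortex set in replicate order. For the medulla set it was 5.80, 5.71, 6.08 and 8.29. The replicate 4 array thus stood alone in each region, while the other 6 arrays lay within 5.64 to 6.08. Against the mean of the other 3 arrays of the region, replicate 4 was 5.99-fold higher in cortex and 5.40-fold higher in medulla. The range over the arrays was 2.71 log2 units in cortex and 2.58 in medulla, and without replicate 4 it was 0.24 and 0.37. By the smaller of the regional ranges, Myc was number 14 of 18166 genes.

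Atf3, a stress-induced member of the ATF family that often represses its targets, followed the same arrays. It measured 5.66, 5.60, 5.51 and 8.01 on the cortex arrays. It measured 5.54, 5.78, 5.89 and 7.73 on the medulla arrays. Again only replicate 4 left the narrow band of the others, by 5.35-fold over their mean in cortex and 4.00-fold in medulla. Ranges of 2.50 and 2.19 log2 units became 0.14 in cortex and 0.35 in medulla without that array. Atf3 was number 31 of all genes by its smaller regional range.

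Klf6, a zinc finger factor known as an early gene of stellate cells in injured liver, was the third gene with large differences. Its cortex values were 6.71, 6.37, 6.02 and 8.35, and its medulla values 6.83, 6.38, 7.22 and 8.56. Replicate 4 was 3.95-fold over the mean of the others in cortex and 3.35-fold in medulla. Unlike Myc and Atf3, Klf6 also varied among the remaining arrays, by 0.69 log2 units among cortex arrays and by 0.83 among medulla arrays. Myc, Atf3 and Klf6 were the 3 genes of the 10 whose replicate 4 value lay at least 2-fold above the next array in both regions, which 0.380% of all genes did.

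The AP-1 genes differed less, and not all on the same arrays. Fos, the classical early partner of Jun proteins, stood at 6.46, 5.79, 5.33 and 6.10 across the cortex set and at 5.95, 5.43, 6.44 and 6.49 across the medulla set. Its highest cortex value was on replicate 1, not on replicate 4, and in medulla replicates 3 and 4 were 0.052 log2 units apart. Fosl1, which encodes the Fos-related protein FRA1 and is induced later than Fos, stood at 5.04, 5.14, 5.15 and 6.02 across the cortex set and at 4.91, 4.94, 4.98 and 5.63 across the medulla set. Fosl1 was high on replicate 4 alone, by 1.88-fold over the mean of the others in cortex and 1.61-fold in medulla. Its lower values lay about the median of all probe sets, 5.09 to 5.12 log2 units, where the size of a fold is limited. The 3 lower arrays of Fosl1 were within 0.12 log2 units in cortex and 0.071 in medulla.

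Jun and Junb, the dimer partners of Fos proteins, had their highest values on replicate 4 in both regions. The brighter Jun probe set, 17808683, stood at 7.03, 6.93, 6.38 and 7.60 across the cortex set and at 6.87, 7.01, 6.82 and 7.54 across the medulla set. The dimmer Jun probe set, 17799870, was highest on the same arrays, at 6.06 and 5.77, over cortex values of 5.59 to 5.89 and medulla values of 5.49 to 5.72 on the others. Junb stood at 7.19, 6.53, 6.42 and 7.78 across the cortex set and at 6.84, 6.65, 6.98 and 7.71 across the medulla set. Junb was 2.09-fold over the mean of the other cortex arrays on replicate 4 and 1.85-fold in medulla, against 1.76-fold and 1.56-fold for Jun. Without replicate 4 the cortex values of Junb still ranged over 0.77 log2 units, with replicate 1 highest, and the medulla values over 0.33.

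Egr1, a zinc finger factor induced through serum response elements, was high on cortex replicates 1 and 4. It stood at 8.76, 7.26, 7.46 and 8.46 across the cortex set and at 7.36, 7.30, 8.07 and 8.61 across the medulla set. The cortex range of 2.82-fold was the same without replicate 4, because replicate 1 was highest and replicate 2 lowest. In medulla the range was 2.48-fold, or 1.70-fold without replicate 4, with replicate 3 the next highest. Egr1 and Fos therefore shared cortex replicate 1 as their top cortex array, and no other gene of the 10 had its top cortex value there. On cortex replicate 1 the medullary marker mean was 7.76 over 6.69 to 7.34 for the rest of the cortex set, and the leukocyte marker mean was 5.50 against 5.21 to 5.45. The part of either in the Fos and Egr1 values was not tested.

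Cebpb, Ier3, Fosl1 and Jun were the 4 genes with the smaller regional range under 2-fold. Cebpb, which encodes a bZIP factor of the acute phase and of adipocyte and macrophage differentiation, stood at 5.54, 5.65, 5.83 and 6.28 across the cortex set and at 5.64, 5.41, 5.66 and 5.90 across the medulla set. Its replicate 4 values were 1.52-fold and 1.26-fold over the mean of the others, and its ranges of 0.74 and 0.49 log2 units were the smallest of the 10 genes. Ier3 encodes a small early response protein that acts on survival and ERK signalling and is not itself a DNA-binding factor. It stood at 6.95, 7.05, 7.37 and 8.25 across the cortex set and at 7.02, 6.87, 7.51 and 7.83 across the medulla set. Replicate 4 was 2.18-fold over the mean of the others in cortex and 1.63-fold in medulla, with replicate 3 next in both regions.

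**Figure D2:**
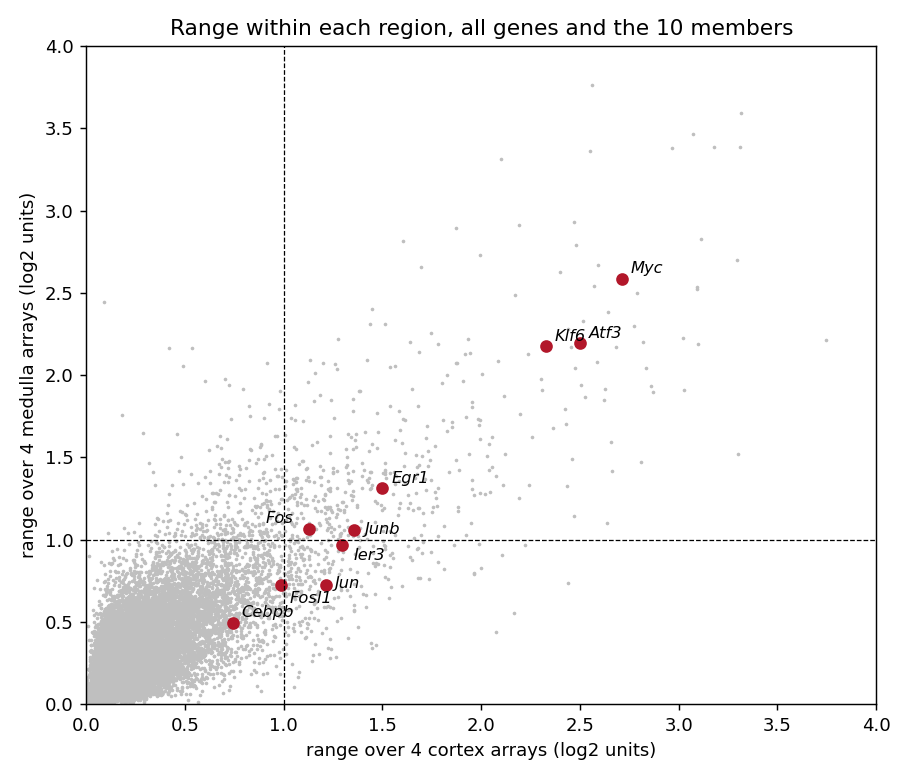
Each point is 1 of 18166 genes, with the range over the 4 cortex arrays on the horizontal axis and over the 4 medulla arrays on the vertical axis, both in log2 units; 5 genes lie beyond the axes. The 10 early response genes are in red, and 6 of them lie beyond the dashed lines at 1 log2 unit (2-fold) in both regions.

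The series' design text selects genes by a 2-fold change within each region and keeps those found in both, but the arrays it compared are not named in the labels, so the range between the arrays was used. It reached 2-fold in 8 of the 10 genes in cortex, against 3.60% of all genes, and in 6 of the 10 in medulla, against 3.80%. In both regions it did so in 6 of the 10, Myc, Atf3, Klf6, Egr1, Fos and Junb, against 2.21% of all genes. The genes were chosen with these values known, so nothing is read from these counts. The nearest to the threshold were Junb and Fos inside it, with medulla ranges of 2.08-fold and 2.09-fold, and Ier3 and Fosl1 outside it, at 1.95-fold in medulla and 1.98-fold in cortex. Jun passed in cortex by its brighter probe set. With the mean of its 2 probe sets its cortex range was 0.85 log2 units, and the cortex count was 7. A 3-fold range was reached by 3 of the 10 in cortex, in medulla and in both, Myc, Atf3 and Klf6, against 1.02%, 0.864% and 0.528% of all genes. Without cortex replicate 4 the cortex count was 2, Fos and Egr1, against 0.798% of all genes. Without medulla replicate 4 the medulla count was 1, Fos at 2.02-fold, against 0.936%. Without both of these arrays Fos alone reached 2-fold in both regions, against 0.248% of all genes.

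**Figure D3:**
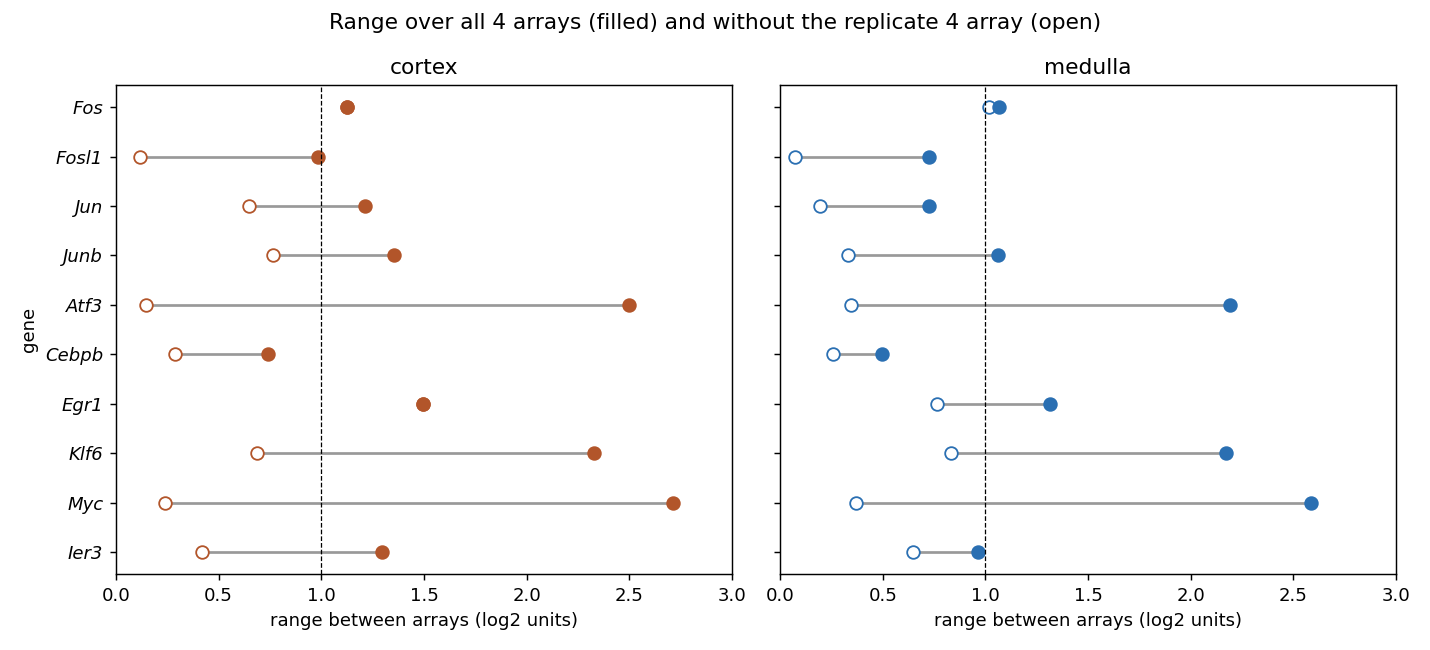
The range between arrays of a region (horizontal axis, log2 units) is shown for each gene over all 4 arrays (filled) and without the replicate 4 array (open), with a dashed line at 2-fold. For Fos and Egr1 in cortex the filled point covers the open one, whereas Myc and Atf3 go from over 2 log2 units to under 0.4 in both regions.

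The region labels allow 1 test, medulla against cortex, which the listing of the genes did not use as a rule. None of the 10 genes separated the regions. The differences, medulla minus cortex, ran from -0.22 log2 units for Fosl1 to 0.38 for Klf6, with 6 positive and 4 negative. Myc averaged 6.42 ± 1.29 (SD, n = 4) for cortex and 6.47 ± 1.23 (SD, n = 4) for medulla, so the regions differed by 0.052 with a 95% interval from -1.80 to 1.90. Fosl1 averaged 5.34 ± 0.46 (SD, n = 4) for cortex and 5.11 ± 0.35 (SD, n = 4) for medulla, with an interval from -0.82 to 0.37. Klf6 averaged 6.87 ± 1.03 (SD, n = 4) for cortex and 7.25 ± 0.94 (SD, n = 4) for medulla, with an interval from -1.06 to 1.83. The interval of Cebpb was the narrowest, from -0.58 to 0.23. limma with Benjamini-Hochberg adjustment over all genes called 0 of the 10, against 0% of all genes, and their adjusted p lay between 0.907 and 0.996. An unadjusted p under 0.05 was reached by 0 of the 10, against 5.35% of all genes, and limma with array weights or a trended robust prior called 0 of the 18166 genes. The regions overlapped in all 10 genes, while 2.83% of all genes did not overlap. The wide intervals do not show that the regions are alike.

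Other early response and stress genes were read from lists of the pathways around the 10 genes. Of 26 measured immediate early genes outside the 10, the range reached 2-fold in 12 in cortex, 6 in medulla and 5 in both. The shares of all genes were 3.60%, 3.80% and 2.21%. The 5 that did so in both regions were Socs3, Ccn1, Zfp36, Rhob and Errfi1, each highest on replicate 4 in both. Errfi1, the feedback inhibitor of the EGF receptor, falls outside the naming rule and was chosen after its values were seen. Socs3, the feedback inhibitor of cytokine receptors, measured 7.51 on cortex replicate 4 over 5.33 to 5.49 on the others, and 8.00 on medulla replicate 4 over 5.51 to 6.30. Zfp36, whose protein speeds the decay of early response messages, stood at 7.84, 7.15, 7.25 and 8.56 across the cortex set and at 7.31, 6.82, 7.14 and 8.25 across the medulla set. Ccn1, a matricellular early gene, stood at 7.64, 7.06, 6.72 and 8.28 across the cortex set and at 7.32, 6.40, 7.26 and 8.45 across the medulla set. Ccn1 was higher on cortex replicate 1 than on replicates 2 and 3, as were 7 of the 10 early response genes, Fos and Junb among them. The share of all genes with that order was not taken. The median range of these 26 genes was 0.96 log2 units in cortex and 0.78 in medulla, against 0.21 and 0.25 over all genes. Without replicate 4 the median was 0.47 and 0.37, against 0.14 and 0.18. These 26 genes were brighter, with means of 6.37 to 7.15 log2 units on the arrays against 5.81 to 5.83 over all genes. Comparisons with all genes were not matched for brightness, and its part in the ranges was not tested.

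**Figure D4:**
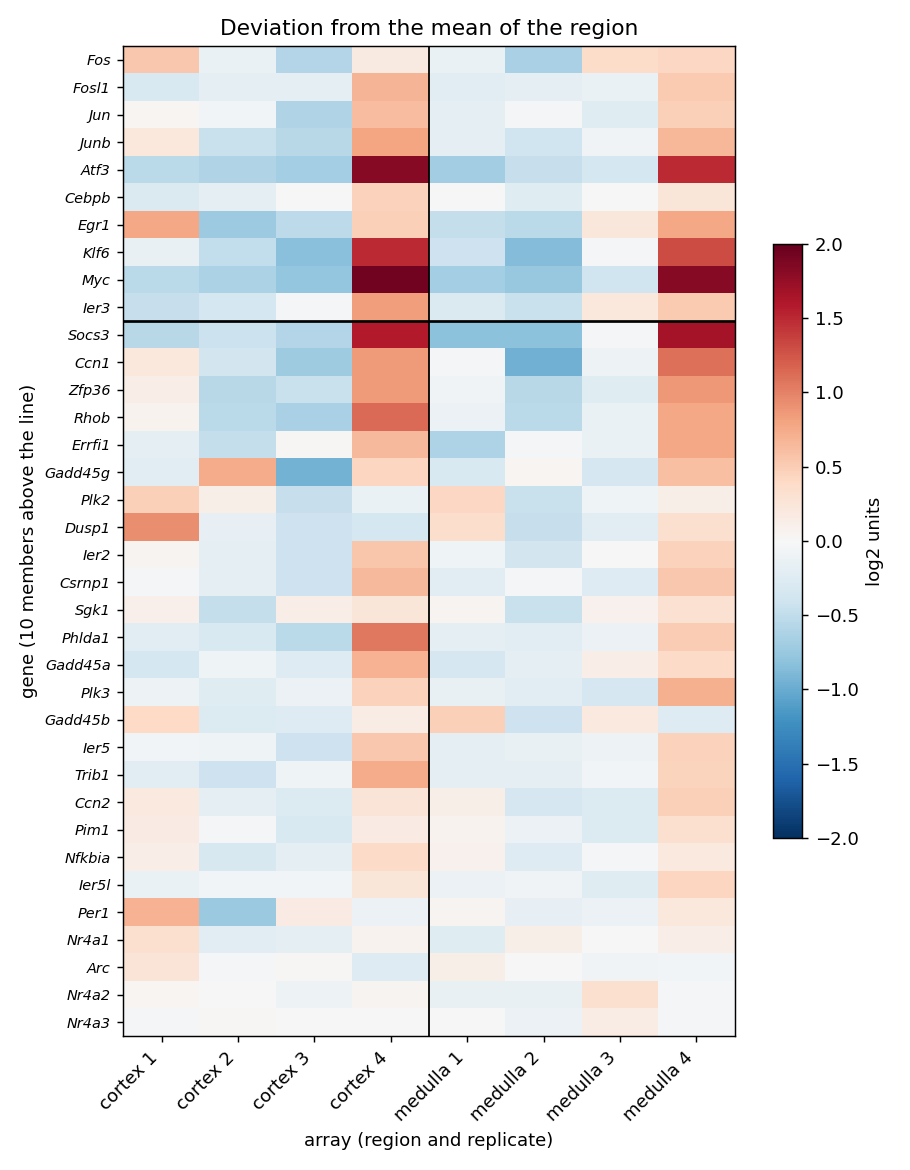
Each cell is the log2 value of a gene (row) on an array (column) minus its mean over the 4 arrays of the region, with red above and blue below that mean on a scale of -2 to 2 log2 units. The 10 early response genes stand above the line and 26 other immediate early genes below it; the replicate 4 columns are red for all 10 genes, and cortex replicate 1 is above the mean for Fos, Egr1, Junb and, slightly, Jun.

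Among the relatives of the 10 genes, the median ranges lay above those of all genes, 0.21 log2 units in cortex and 0.25 in medulla. Over 19 measured genes of the other AP-1, ATF and MAF factors the median range was 0.34 and 0.41, and 11 of the 19 were highest on replicate 4 in both regions, against 17.0% of all genes. Of these 19, 1 reached 2-fold in both regions, against 2.21% of all genes, the bZIP repressor gene Nfil3, at 6.30 and 6.27 on the replicate 4 arrays over 5.24 to 5.53 in cortex and 5.17 to 5.56 in medulla. Atf4, the regulator of the amino acid stress response, measured 9.35 and 9.05 on the replicate 4 arrays over 8.39 to 8.54 for the rest of the cortex set and 8.50 to 8.63 for the rest of the medulla set. Of 4 other C/EBP genes 0 reached 2-fold in either region, against 3.60% of all genes in cortex and 3.80% in medulla. For Ddit3 among them, replicate 4 minus the mean of the others was -0.14 log2 units in cortex and -0.28 in medulla. In this list 1 of the 4 was highest on replicate 4 in both regions, against 17.0% of all genes. Over 13 other EGR and KLF genes the median range was 0.32 in cortex and 0.60 in medulla. In both regions 1 of the 13 reached 2-fold, against 2.21% of all genes, and it was low on the replicate 4 arrays. This was Klf15, a regulator of metabolism, at 5.36 and 5.16 there over 6.19 to 6.57 in cortex and 5.94 to 6.32 in medulla.

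Among genes of the MYC network, 0 of 11 measured partners and antagonists of MYC reached 2-fold in either region. The share of all genes that did was 3.60% in cortex and 3.80% in medulla. Mxi1, an antagonist that competes for MAX, was lowest on the replicate 4 arrays, at 7.15 in cortex and 7.29 in medulla, over 7.58 to 7.97 and 7.84 to 7.89 on the others. Of 18 MYC target genes 16 were highest on replicate 4 in both regions, most of them by less than 2-fold, against 17.0% of all genes. The median of replicate 4 minus the mean of the others over these 18 was 0.58 log2 units in cortex and 0.49 in medulla, against -0.0011 and -0.0048 over all genes. Nop56, a ribosome assembly factor, measured 8.33 and 8.34 on the replicate 4 arrays over 7.27 to 7.38 in cortex and 7.03 to 7.41 in medulla. Odc1, the polyamine enzyme often used as a MYC target, went the other way in cortex, with 10.02, 9.99, 9.37 and 9.09, and measured 9.88, 9.92, 8.73 and 9.54 in medulla.

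Of 18 AP-1 target genes 7 reached 2-fold in both regions, all highest on replicate 4 in both. Over all 18166 genes 402 did (2.21%), of which 171 were highest on replicate 4 in both regions. The cytokine gene Lif measured 8.05 on cortex replicate 4 over 4.98 to 5.14, and 8.42 on medulla replicate 4 over 4.96 to 5.89. Timp1, the metalloproteinase inhibitor, measured 8.78 over 5.81 to 5.94 in cortex and 9.11 over 5.73 to 7.48 in medulla. Ccl2, a monocyte chemokine, measured 7.11, 6.51, 5.71 and 7.71 in cortex, high on replicates 1 and 4 as Egr1 was. Of 10 ATF3 and ATF4 stress targets 5 were highest on replicate 4 in both regions, against 17.0% of all genes. Of the same 10, 1 was lowest there in both, Herpud1, at 7.45 in cortex and 7.44 in medulla, against 16.0% of all genes. A 2-fold range in both regions, which 2.21% of all genes had, was reached by 1 of them, Gdf15. It measured 7.60 and 7.29 on the replicate 4 arrays over 5.92 to 6.26 in cortex and 5.84 to 5.99 in medulla. Of 25 upstream growth factor and MAP kinase genes 2 reached 2-fold in both regions, Dusp6 and Egf, against 2.21% of all genes. Dusp6, the ERK phosphatase, was highest on replicate 4 at 7.89 and 7.87. Egf was lowest there at 9.07 and 8.45, over 10.48 to 10.81 in cortex and 10.21 to 10.71 in medulla. limma called 0 genes of these lists between the regions, as it did over all genes.

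The genes with the profile most like each of Myc, Atf3 and Klf6 were found by the root mean square difference over the 8 arrays, after subtracting each gene's own mean. Atf3 was the nearest of all genes to Myc, at 0.17 log2 units, followed by Pvr, Tnfrsf12a, Cemip and Nabp1 at 0.20 to 0.23. The nearest to Atf3 were Pvr at 0.11, Ddx52 at 0.14, Myc, Nabp1 and Tnfrsf12a. Pvr encodes a nectin-like adhesion receptor and Tnfrsf12a the receptor of the cytokine TWEAK. Tnfrsf12a stood at 5.82, 6.22, 6.29 and 8.64 across the cortex set and at 6.26, 6.18, 6.60 and 8.39 across the medulla set, so that it too was high on replicate 4 alone. The nearest to Klf6 were Actn1 at 0.21, Tubb5, Axl, S100a10 and A3galt2, up to 0.25. These likenesses rest largely on the replicate 4 arrays, which all of these genes share.

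Markers of injury and of other cells were set beside these values. Havcr1, which encodes kidney injury molecule 1, stood at 4.59, 5.15, 7.54 and 11.27 across the cortex set and at 4.54, 4.80, 8.95 and 11.32 across the medulla set. It was high on both replicate 3 and replicate 4. Myc on replicate 3 measured 5.64 in cortex and 6.08 in medulla, and Atf3 measured 5.51 and 5.89. Of the 10 early response genes, 9 were higher on medulla replicate 3 than on medulla replicates 1 and 2, Myc and Atf3 among them. Some margins were small, as for Atf3 at 5.89 over 5.78 on medulla replicate 2. In cortex, replicate 3 was the lowest array for 6 of the 10. The shares of all genes with these orders were not taken, so nothing is read from either count. Over 14 tubular injury genes the mean was 7.59 on cortex replicate 4 over 6.33 to 6.59. In medulla it was 7.90 on replicate 4 over 6.37 to 7.17. Of these 14 genes, 9 were highest on replicate 4 in both regions, against 17.0% of all genes. Over 18 leukocyte markers the mean was 5.21 to 5.50 in cortex, with 5.45 on replicate 4, and 5.35 to 5.79 in medulla, with the highest on replicate 4. Of these 18 markers 5 were highest on replicate 4 in both regions, against 17.0% of all genes. Over 8 fibroblast and endothelial markers the mean was 7.29 to 8.00 in cortex, with 7.56 on replicate 4. In medulla it was 7.61 to 8.40, with the highest on replicate 4. Of these 8 markers, 0 were highest on replicate 4 in both regions, against 17.0% of all genes. The mean of the medullary markers, of thick limb, collecting duct and papilla, was lowest on replicate 4 in each region, though not every marker was. Of the 10 measured, 5 were lowest on replicate 4 in both regions, against 16.0% of all genes. On replicate 4, 0 of the 10 lay above the mean of the other arrays in both regions, against 6071 of all 18166 genes. Some of the 10 lay above that mean in 1 region, such as Slc5a3 by 0.22 and Slc14a2 by 0.070 log2 units in medulla, and Akr1b1 by 0.049 in cortex. The mean of the 10 markers on replicate 4 was 6.69 in cortex over 7.23 to 7.76, and 7.42 in medulla over 7.82 to 8.67. Slc12a1, the salt cotransporter of the thick ascending limb, was 8.62 on cortex replicate 4 over 10.42 to 11.26 and 10.15 on medulla replicate 4 over 11.07 to 11.25. Aqp2, the water channel of the collecting duct, was 8.03 there over 9.36 to 9.72 and 8.12 over 9.41 to 10.78, and both genes were chosen after their values were seen. The part of injured cells, medullary tissue, leukocytes or stroma in the values of the 10 genes was not tested.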

How the data were processed

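Each array's column in the table the authors deposited holds linear intensity by probe set. RMA in Affymetrix Expression Console produced it, per the submitters' processing notes, with no version stated there. Values ran from 17.3 to 6229 and were log2-transformed with no pseudocount. Of 29870 probe sets, the platform annotation gave 18511 a single symbol, 575 several and 10784 none. The brightest probe set of each gene was kept for 291 genes with several, giving 18166 genes, with no filter. Entrez identifiers of 18394 probe sets matched the rat RefSeq table (GRCr8) and 0 symbols changed.

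The medulla was set against the cortex by limma (version 3.58.1, R version 4.3.3) over all genes, calling an adjusted p under 0.05 with at least 2-fold. The fit was also run on simulated data, with noise independent between genes and arrays. That run does not show what size of difference could be called on these arrays, where replicate 4 stood apart. The range is the highest minus the lowest log2 value in a region, with no test. Promoter windows came from RefSeq.

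The genes, lists and motifs were chosen with earlier results of these data known. Named genes were the 10 members, up to 4 per other list by smaller regional range (marker lists by region difference), 5 nearest profiles for each of 3 members, and Havcr1, Slc14a2 and Slc22a8. Slc22a8, a proximal tubule transporter, differed by -0.59 ± 0.22 (SE) log2 units, medulla minus cortex. Alternatives were other normalizations, mean probe sets, other thresholds and variance models, a filter on dim genes and arrays left out. Figures were drawn with matplotlib 3.10.9.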

Additional observations from a re-analysis of the deposited data

Results flagged for a closer look

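In 6 of 20 sets of 4 arrays (10 genes in each of 2 regions), 1 array lay far from the other 3, with its gap to the nearest array, as a share of the whole range, over Dixon's 95% critical value; chance flags about 1 in 20 independent sets. The genes were listed with these values known and the 20 sets share the same 8 arrays, so that rate is no yardstick here and the flags are a description, not a test. All 6 were replicate 4 arrays at the high end. For Myc the gap was 0.911 of the range in cortex, where replicate 4 measured 8.35 log2 units, and 0.858 in medulla at 8.29. For Atf3 it was 0.942 in cortex at 8.01 and 0.842 in medulla at 7.73. For Fosl1 it was 0.882 in cortex at 6.02 and 0.902 in medulla at 5.63.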

How the results depend on the processing

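Quantile normalization, median centring and averaging a gene's probe sets left each count of early response genes with a 2-fold range within 1.5 times its value. The only change was in cortex, from 8 to 7 without Jun, when probe sets were averaged. With a 3-fold range 3 genes passed in cortex, 3 in medulla and 3 in both, against 1.02%, 0.864% and 0.528% of all genes. With both replicate 4 arrays left out, 2 passed in cortex, 1 in medulla and 1 in both, against 0.798%, 0.936% and 0.248%. With any 1 array left out the count was 2 to 8 in cortex, 1 to 6 in medulla and 1 to 6 in both, lowest without a replicate 4 array. The regional test called 0 genes under every alternative run. Medulla minus cortex differences had no stable sign: leaving out 1 array moved them from -0.56 to 0.70 for Myc, -0.46 to 0.65 for Atf3, -0.036 to 0.38 for Fos, -0.40 to 0.0027 for Fosl1, -0.12 to 0.28 for Jun, -0.15 to 0.33 for Junb, -0.41 to 0.11 for Egr1, -0.054 to 0.88 for Klf6 and -0.27 to 0.18 for Ier3, while Cebpb stayed negative. The sign also turned for Jun with the mean of its probe sets, at -0.031, and for Ier3 without both replicate 4 arrays, at 0.0072. The cause was not tested. No paired analysis was possible because the labels give the regions no shared replicate numbers.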
